A study of Saccharomyces cerevisiae with 10 samples.

Results

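The arrays of a sugar-fed yeast culture at 18 h were set against those taken when feeding began, over 5654 genes of Saccharomyces cerevisiae. The members were chosen by label: the 2 arrays labelled sugar medium at 18 h and the 2 arrays labelled control at the start of the fed-batch, 4 of the 10 arrays in the study. A gene was included when a probe set named its reading frame alone, and the brightest of several such probe sets, by its mean on the 10 arrays, stood for the gene.

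All groups were the same strain, TMB3500, grown aerobically at 30 °C and pH 5, with no engineered allele named in the labels. The start group (0 h) came from a 0.7 L batch given 20 g/L glucose. The sugar group had then received a mixture of glucose, mannose and xylose, matched to the sugars of a spruce hydrolysate, at a rate that climbed from 0.04 to 0.1 L/h over 16 h and brought the volume to 1.7 L. The labels state no feed between 16 h and 18 h, and do not say how much sugar was left in any sample. Of the other groups, the sugar feed at 9 h and the feed of non-detoxified spruce hydrolysate at 18 h are cited below, and each again had 2 arrays. Fermentor cultures were sampled as bulk RNA, so a change in a share of the cells and a smaller change in every cell cannot be told apart. The authors' deposited table gives its later time point as an hour earlier than the labels do.

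Budding yeast on ample glucose ferments it to ethanol and holds down the genes for respiration, for other carbon sources and for making glucose from ethanol. When glucose runs low these genes are released, and growth on ethanol needs gluconeogenesis, the glyoxylate cycle and mitochondria. The making of ribosomes follows growth rate, while chaperones, storage carbohydrates and autophagy are associated with slow growth or stress.

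Levels are log2 array intensities after robust multi-array averaging (RMA), so a difference of 1 is a 2-fold change, and levels of different genes are not compared. Between 97.7% and 98.2% of the genes exceeded the background of their array. Each array also carries probe sets for Schizosaccharomyces pombe, and background was the level below which 95% of these lay (4.78 to 4.9). Replicates correlated across genes at 0.9799 in the start group and 0.9956 at 18 h. At the start 180 genes lay at least 2-fold apart between replicates, against 9 at 18 h. Several technical measures moved with the comparison. The hybridisation control probe sets of bioB, bioC, bioD and cre averaged 11.69 ± 0.26 (SD, n = 2) at the start and 10.52 ± 0.091 at 18 h. The poly-A controls from Bacillus subtilis averaged 8.03 ± 0.55 and 6.76 ± 0.21. The excess of 3′ over 5′ probe sets was 0.83 ± 0.075 at the start and 0.60 ± 0.0077 at 18 h. It was 0.67 ± 0.003 under sugar at 9 h and 1.23 ± 0.052 under hydrolysate at 18 h. Probe sets of ribosomal RNA averaged 8.95 ± 0.061 at the start and 8.21 ± 0.2 at 18 h. They averaged 6.27 ± 0.14 under sugar at 9 h and 7.81 ± 0.11 under hydrolysate at 18 h. The comparisons with those 2 groups thus carry technical shifts of their own.

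Gene length moved with the difference too. Genes with a known length were cut by it into 4 bins of nearly equal size. In the bin of the shortest genes (up to 753 bases), 15.4% were called higher and 52.5% lower at 18 h, with a median log2 difference of -0.51. In the bin of the longest genes, 60.6% were called higher and 10.2% lower, with a median of 0.65. With a length trend removed from each array these medians were 0.01 and -0.03, and the counts of the gene groups below are given with that trend removed wherever they changed by over 1.5 times.

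**Figure D1:**
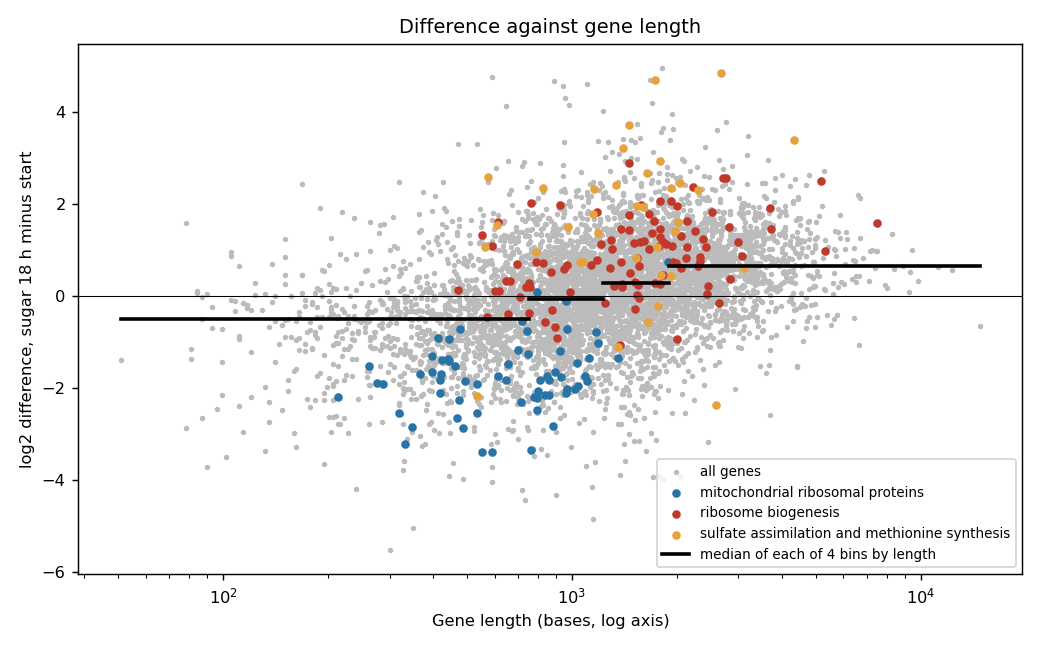
Log2 difference between sugar feed at 18 h and start (vertical axis) against gene length in bases (horizontal log axis), 1 point per gene. Black bars mark the medians of 4 bins by length, from -0.51 to 0.65. Mitochondrial ribosomal proteins (blue) lie below the bar of their own bin for the most part, ribosome biogenesis genes (red) and sulfate and methionine genes (orange) mostly above it.

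Most genes differed. In limma's moderated test on all 10 arrays, with Benjamini-Hochberg adjustment over the 5654 genes, 3759 were called at an adjusted p under 0.05 (66.5%). Of these 2081 were higher at 18 h (36.8% of the genes) and 1678 lower (29.7%). The call was joined by a difference of at least 2-fold for 1091 higher and 919 lower genes, and of at least 8-fold for 40 and 52. The median over all genes was 0.08, with quartiles of -0.64 and 0.80, and the median standard error was 0.178. Both arrays of one group lay above both of the other for 4823 genes (85.3%). With only 2 arrays a group, that separation is common. Each count of a gene group against the start below is to be read beside the 36.8% higher and 29.7% lower over all genes.

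The split between higher and lower depends on the scale. RMA sets the arrays to a shared distribution, and 55.4% of the called genes were higher. Set to the hybridisation controls, the median of all genes moved from 0.08 to 1.25 and 92.2% of the called genes were higher. Set to the poly-A controls, the median was 1.35 and 95% were higher. With the length trend removed, 49.2% were higher. All differences below are on the RMA scale and thus relative to the middle of the array, and a fall smaller than these shifts becomes a rise on the scale of the controls.

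**Figure D2:**
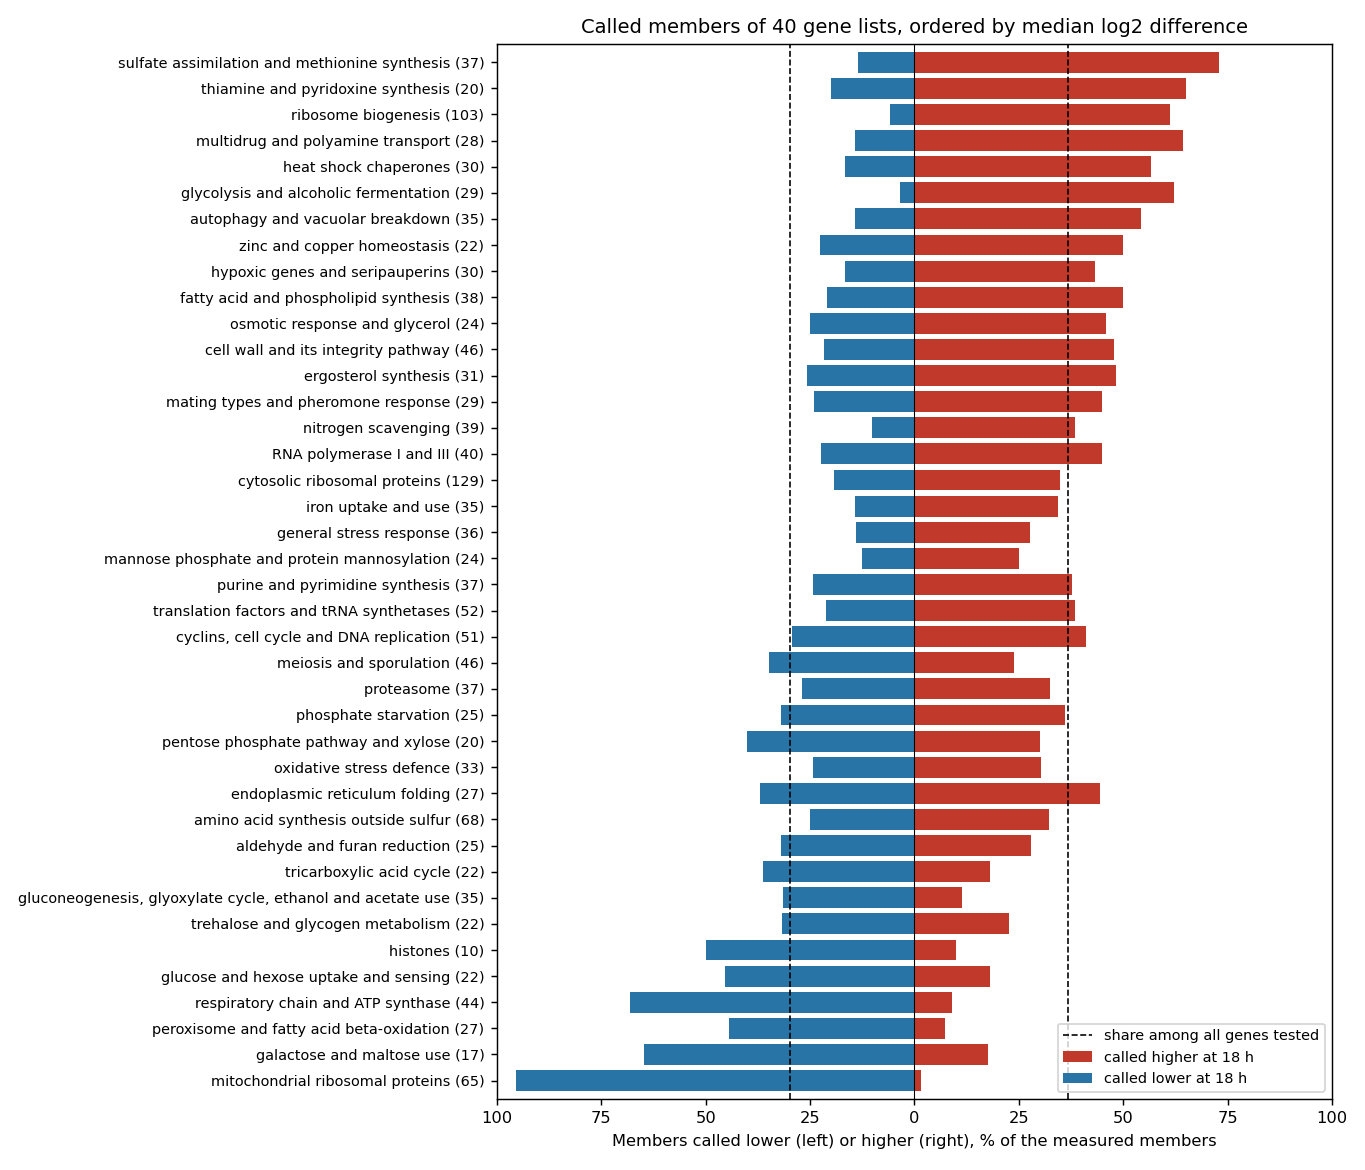
Share of the measured members of 40 gene lists called higher (red, right) or lower (blue, left) at 18 h against start, in percent, with the number measured in brackets. Dashed lines mark 36.8% higher and 29.7% lower over all genes. Sulfate and methionine genes stand at the top by median and mitochondrial ribosomal proteins at the bottom.

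The genes that rose most included carriers and enzymes of nitrogen, sulfur and vitamin supply. PTR2, the carrier of di- and tripeptides (chromosome XI, 615730 to 617535, forward strand, in the coordinates of the authors' deposited table), read 6.29 and 7.67 at the start and 11.76 and 12.10 at 18 h. All 4 arrays separate by group, which the rule that chose the largest rises and falls requires. The start replicates were well apart from each other. The log2 difference was 4.95 ± 0.404 (SE), 30.9-fold, with an adjusted p of 3.33e-05 by limma. The sulfate permease gene SUL2 (chromosome XII, 323544 to 326225, forward strand) read 7.48 and 8.01 at the start and 12.51 and 12.69 at 18 h, a rise of 4.85 ± 0.516 with an adjusted p of 8.99e-05. Rises of 4.69 and 4.68 were found for AGP3, an amino acid permease, and for MUP1, the high-affinity methionine permease. THI4, which makes the thiazole part of thiamine, rose by 4.15 from 10.05 and 10.16 to 14.24 and 14.26.

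Other large rises joined genes of unrelated roles. SHH3, a mitochondrial homologue of a succinate dehydrogenase subunit, rose by 4.76, and GTO3, an omega-class glutathione transferase, by 4.60. IZH4, a membrane protein linked to zinc balance, rose by 4.56. WHI5, the repressor of the passage from G1 into S phase, rose by 4.67, although its start arrays read 5.15 and 6.41. PDC6, a minor pyruvate decarboxylase low in sulfur amino acids, rose by 4.19, and HSP26, a small heat shock protein, by 4.12. RPI1, a transcription factor, ECM10, a mitochondrial chaperone, and the uncharacterised YDL218W and YKL050C rose by between 3.77 and 4.31. YDL218W had the weakest call of these, with a standard error of 1.38 and an adjusted p of 0.0223 by limma. It read 10.19 and 10.25 at the start and 14.51 and 14.55 at 18 h. The standard error is pooled over all groups, and the hydrolysate arrays at 9 h, outside this comparison, read 7.24 and 12.86. The call of YDL218W was lost without any 1 of the 4 arrays, at differences of 4.28 to 4.34.

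Among the largest falls was a central enzyme, TKL1, the main transketolase of the pentose phosphate pathway (chromosome XVI, 692796 to 694838, reverse strand). It read 10.73 and 10.56 at the start and 6.64 and 6.83 at 18 h, a fall of 3.91 ± 0.14 with an adjusted p of 1.92e-06 by limma. Its arrays at 9 h stood at 12.86 and 12.75, so the level was lowest at 18 h and highest in between. LTP1, a protein tyrosine phosphatase gene that is the next gene on that chromosome, fell by 3.98, from 12.95 and 12.90 to 9.00 and 8.88. STL1, the glycerol importer, fell by 3.95 and IMA1, an isomaltase, by 3.92.

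The uncharacterised gene YLR012C fell furthest, by 5.53 (46.4-fold), from 11.02 and 10.36 to 5.34 and 4.97, and had already read 5.02 and 5.10 at 9 h. YGR035C fell by 5.05 and PRM10, a membrane protein induced by pheromone, by 4.85. FSH1, a serine hydrolase, fell by 4.44, having read 11.04 and 10.23 at the start and 10.14 and 10.54 at 9 h. SLZ1, known from sporulation, fell by 4.33 and the kinetochore gene NKP1 by 4.22. MSW1, the mitochondrial tryptophanyl-tRNA synthetase, fell by 4.16, DAL3, an enzyme of allantoin breakdown, by 4.06 and DIP5, the carrier of glutamate and aspartate, by 3.98. YGL230C fell by 3.93. YBL008W-A was not above background at 18 h and is at least 11.3-fold lower there.

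**Figure D3:**
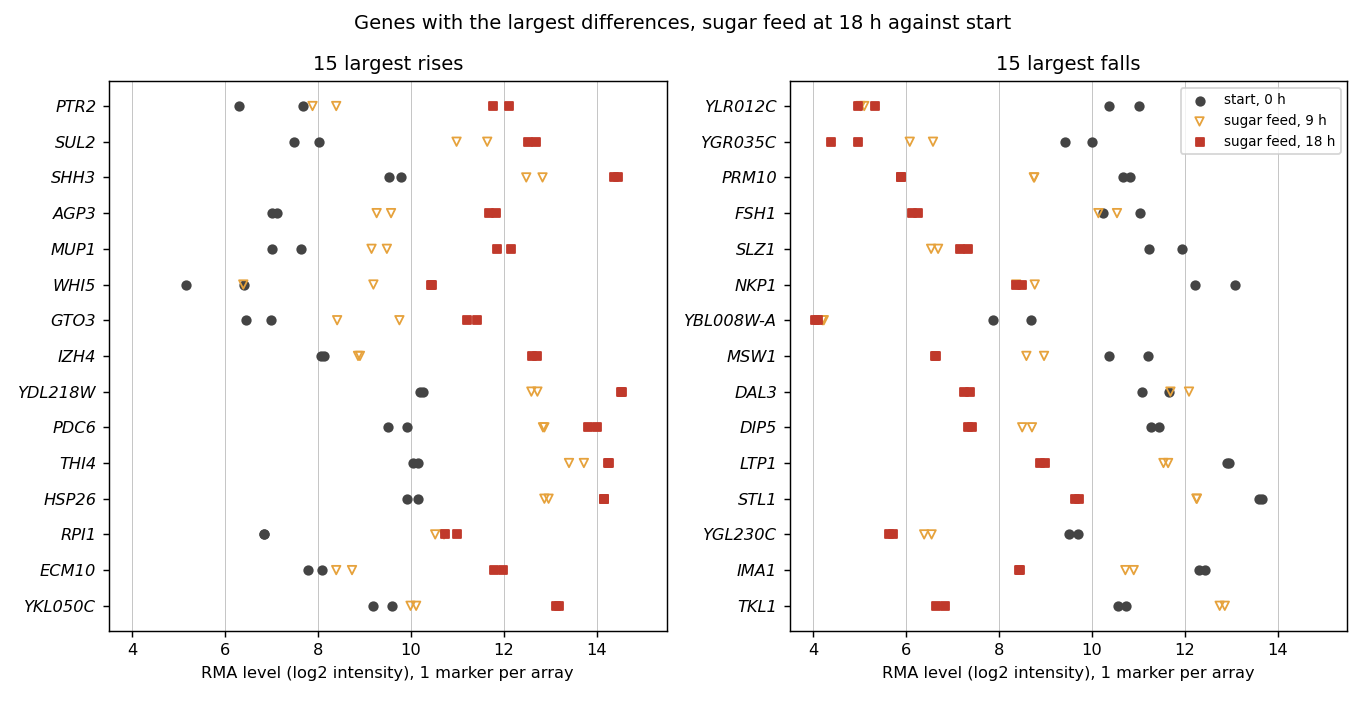
RMA level (log2 intensity) of the 15 genes with the largest rises (left) and falls (right), 1 marker per array, for start (grey circles), sugar feed at 9 h (open orange triangles) and sugar feed at 18 h (red squares). In each gene the red squares lie to one side of both grey circles, because only genes with groups that do not overlap were chosen. The 9 h markers lie between them for most genes, and for TKL1 they lie above both.

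Sulfur genes rose as a group. Sulfate is taken up, activated and reduced to sulfide in a chain of steps, and sulfide is built into homocysteine, methionine and S-adenosylmethionine. Of 37 measured genes of sulfate assimilation and methionine synthesis, 27 were called higher and 5 lower, against 36.8% and 29.7% over all genes. The median difference was 1.53 against 0.08 over all genes. Removal of the length trend left 28 higher and 5 lower, with a median of 1.58. Beside SUL2 and MUP1, MET2, which acetylates homoserine, read 9.11 and 9.24 at the start and 12.81 and 12.97 at 18 h, a rise of 3.71 ± 0.329 (adjusted p 4.55e-05, limma). MET5, a subunit of sulfite reductase, rose by 3.39 from 10.28 and 10.05 to 13.45 and 13.66. MET17, which joins sulfide to acetylhomoserine, rose by 2.40 and GSH1, the first enzyme of glutathione synthesis, by 2.46.

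The 5 lower genes, named here after their values were seen, were SUL1, MET31, SAM4, SAH1 and MET7. SUL1, the second sulfate permease, read 11.55 and 10.59 at the start and 8.57 and 8.83 at 18 h, a fall of 2.37 ± 0.367 with an adjusted p of 0.000588 by limma. The 2 sulfate permease genes thus moved in opposite directions, and in neither did the groups overlap, which for SUL2 the rule of choice required. MET31, a DNA-binding regulator of the pathway, fell by 2.19. SAH1, which splits S-adenosylhomocysteine, fell by 1.11, less than the shift of the controls.

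Against 9 h, 9 of the 37 genes were called higher at 18 h and 12 lower (56.8% called), with a median of -0.20. Over all genes 31.9% were called higher and 27% lower in that comparison (58.9% called). The counts of the pathway are thus near the shares over all genes. MUP1 read 9.48 and 9.15 at 9 h, between start and 18 h, and was 2.68 higher at 18 h than at 9 h. MET17 stood at 13.89 and 13.84 at 9 h, and its difference of -0.38 at 18 h was not called. It was called in a fit of only the 4 sugar arrays (adjusted p 0.0158, limma) or without either hydrolysate array at 18 h. Under the hydrolysate feed at 18 h 28 of the 37 genes were called lower than under the sugar feed, with a median of -1.17, against 30.8% called lower and 61.9% called in either direction over all genes. SUL2 there read 8.84 and 10.70, a pair of replicates far apart, and MUP1 8.62 and 8.23, a difference of -3.58 from the sugar feed.

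**Figure D4:**
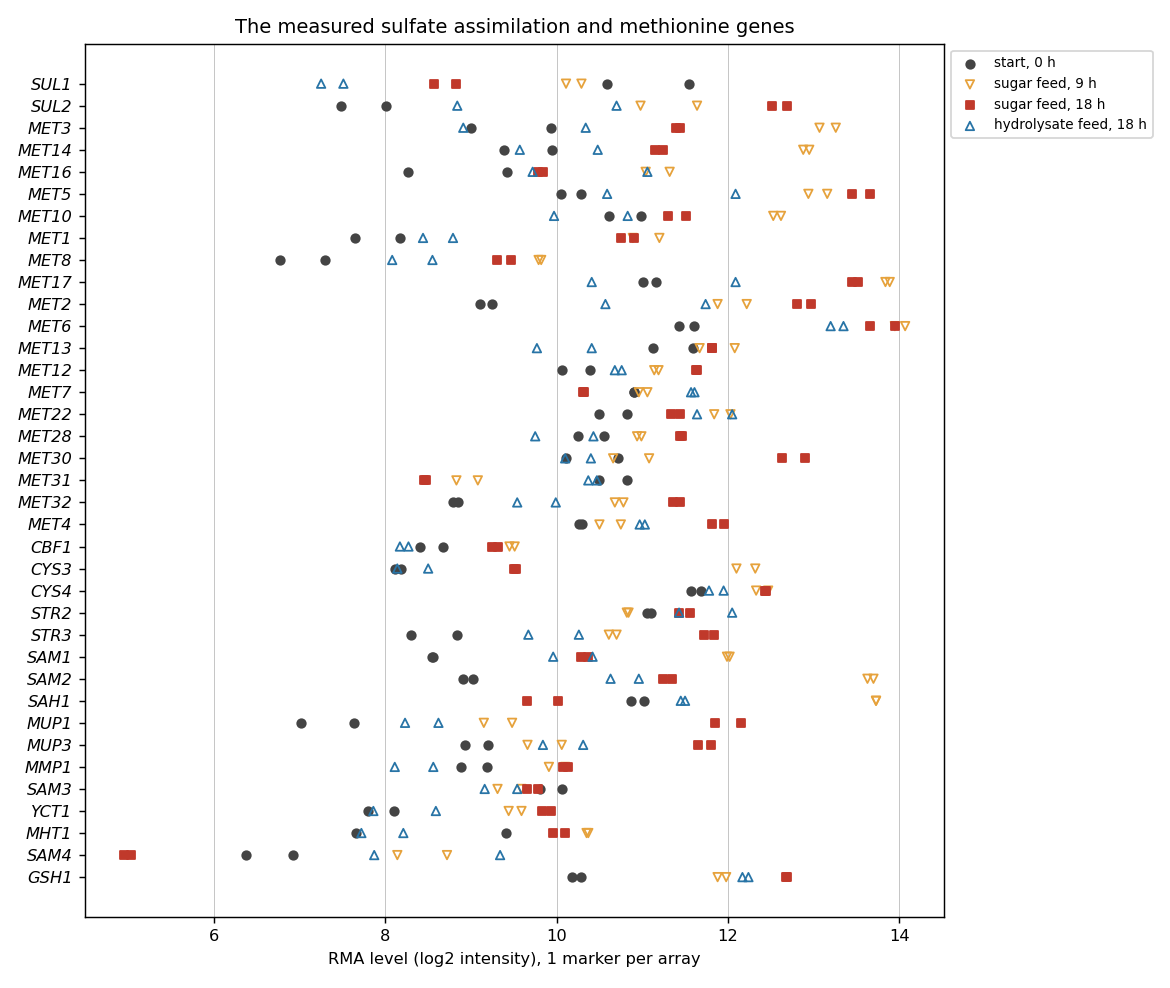
RMA level (log2 intensity) of the 37 measured genes of sulfate assimilation and methionine synthesis, 1 marker per array, for start, sugar feed at 9 h and 18 h, and hydrolysate feed at 18 h. The red squares of SUL2, MUP1, MET2 and MET5 lie to the right of their start arrays by 3.39 to 4.85, and those of SUL1 to the left.

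On the RMA scale several hexose carrier genes were called lower, and most glycolytic and fermentation genes higher. Of 22 measured genes of hexose uptake and sensing, 4 were called higher and 10 lower, against 36.8% and 29.7% over all genes. The list's median of -0.46 turned to 0.71 on the scale of the hybridisation controls. Without replicate 1 at 18 h 6 were called lower, and without replicate 2 at 18 h 4 were. HXT2, a high-affinity glucose carrier, read 11.78 and 11.55 at the start and 8.41 and 8.17 at 18 h, a fall of 3.37 ± 0.371 (adjusted p 0.000103, limma). HXT4 fell by 2.07, and HXT1, a low-affinity carrier known for its induction by high glucose, was 3.33-fold lower. The start arrays of HXT1 were far apart, at 8.21 and 9.99, and both 18 h arrays (7.49 and 7.24) lay below them. Its call was lost without replicate 2 at 18 h (-1.61) and in a fit of only the 4 arrays (adjusted p 0.0519, limma). MIG2, a glucose-induced repressor, fell by 1.92. HXT5 read between 13.95 and 14.56 and its difference of 0.52 was not called except in a fit of only the 4 arrays or without either hydrolysate array at 9 h, nor was that of HXT7 (0.02), a gene with a near-identical copy on the same probe set.

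The 4 higher genes of this list are regulators and a sensor rather than carriers, and 3 of them are named after their values were seen. MTH1, a repressor partner that holds hexose carrier genes off when glucose is scarce, rose by 1.94, from 10.34 and 11.07 to 12.62 and 12.68. RGT1, the DNA-binding repressor it works with, rose by 1.75, MIG1 by 0.71 and SNF3, the sensor of low glucose, by 0.60, which was -0.09 and not called with the length trend removed.

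Of 29 genes of glycolysis and alcoholic fermentation, 18 were called higher and 1 lower, against 36.8% and 29.7% over all genes. The list's median was 0.69. With the length trend removed, over the 28 with a length, 16 were higher and 2 lower, with a median of 0.47. CDC19, the main pyruvate kinase, read 11.42 and 12.22 at the start and 14.27 and 14.51 at 18 h, a rise of 2.57 ± 0.241. PDC1, the main pyruvate decarboxylase, rose by 1.85 and GCR1, the activator of glycolytic genes, by 2.02. ADH1, the fermentative alcohol dehydrogenase, was not called, at -0.16. The list had reached a like level by 9 h. From 9 h to 18 h 2 of the 29 genes were called higher and 5 lower, against 31.9% and 27% over all genes.

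The gene that fell was HXK2, the hexokinase that also serves in glucose repression. It read 10.83 and 10.60 at the start, 12.98 and 12.93 at 9 h and 8.29 and 8.10 at 18 h. HXK2 thus ended 2.52 ± 0.151 below the start (adjusted p 1.02e-05, limma) and 4.76 below its 9 h level. The other hexose kinases did not follow it. GLK1 and HXK1 differed from the start by 0.19 and -0.10, and neither was called.

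Genes for the use of ethanol and for making glucose were split. Of 35 genes of gluconeogenesis, the glyoxylate cycle and the use of ethanol, acetate and lactate, 4 were called higher and 11 lower. Over all genes 36.8% were called higher and 29.7% lower, so the count lower is near that share. The list's median of -0.27 turned to 0.90 on the scale of the hybridisation controls. FBP1, fructose-1,6-bisphosphatase, fell by 2.76 ± 0.161, from 13.15 and 12.96 to 10.52 and 10.09. PCK1, which makes phosphoenolpyruvate from oxaloacetate, fell by 2.00, from 13.08 and 13.02 to 10.97 and 11.12, but had read 7.64 and 8.01 at 9 h. ICL1 of the glyoxylate cycle differed by -0.93, ADH2 by -0.18 and ACS1 by -0.06, none of them called. ICL1 was called in a fit of only the 4 arrays (adjusted p 0.00297, limma), without either hydrolysate array at 9 h (0.000253) and with the length trend removed (-1.31, adjusted p 0.0242). ADH2 and ACS1 read over 14 in all 4 arrays, near the top of the arrays' range, where a difference is compressed. ALD6, the cytosolic acetaldehyde dehydrogenase, fell by 3.15, from 12.01 and 11.75 to 8.99 and 8.47. The 4 higher genes, named after their values were seen, included the activators ADR1 (1.81) and CAT8 (1.03), the latter at 0.23 and not called with the length trend removed.

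The oxidative branch of the pentose phosphate pathway is a main source of NADPH, as is the reaction of ALD6. Of its genes, GND1, 6-phosphogluconate dehydrogenase, read 12.25 and 12.03 at the start, 13.49 and 13.40 at 9 h and 9.72 and 9.35 at 18 h, a fall from the start of 2.60 ± 0.171 (adjusted p 1.56e-05, limma). SOL3, a 6-phosphogluconolactonase of the same branch, fell by 2.92. Of the 20 genes of the pathway and of xylose use, 6 were called higher and 8 lower, with a median of -0.07. XYL2, a xylitol dehydrogenase, rose by 1.69 and XKS1, xylulokinase, fell by 1.28. Under hydrolysate at 18 h TKL1 read 10.66 and 10.88, 4.03 above the sugar feed, and ALD6 was 4.29 above it.

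ADH6, an NADPH-dependent alcohol dehydrogenase, fell by 2.69 and stood at 13.25 and 13.21 at 9 h. OYE2, an NADPH oxidoreductase, was not called against the start (-0.60), yet lay 4.55 below its 9 h level and 5.71 below the hydrolysate feed at 18 h. Its homologue OYE3 moved otherwise and rose by 2.46 from the start. TRR1, the cytosolic thioredoxin reductase, fell by 1.71. The list of 25 genes of aldehyde and furan reduction had 7 higher and 8 lower, and the 33 genes of oxidative stress defence 10 higher and 8 lower. With the length trend removed the latter had 15 higher and 5 lower. Without any 1 of the 4 arrays 5 of the aldehyde genes were lower, and 3 of the oxidative stress genes were lower without replicate 2 at 18 h and 5 without replicate 1 at 18 h or of the start.

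Maltose and isomaltose genes were lower on the RMA scale. Of 17 measured genes of galactose and maltose use, 11 were called lower and 3 higher, with a median of -0.92 (-1.17 with the length trend removed, 0.25 on the scale of the hybridisation controls). IMA1 fell from 12.43 and 12.30 to 8.44 and 8.45, and IMA5, another isomaltase, by 3.13. GAL10 fell by 1.85 while its pathway partners GAL7 and GAL1 rose by 1.67 and 0.89, all from levels below 9.

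Mitochondrial ribosomal proteins fell almost without exception. These proteins build the ribosomes that make a handful of respiratory chain subunits inside the organelle. Of 65 measured, 62 were called lower and 1 higher, with a median of -1.83. The share called lower over all genes was 29.7%. MRPL32 read 13.04 and 12.65 at the start and 9.50 and 9.41 at 18 h, a fall of 3.39 ± 0.357 (adjusted p 8.65e-05, limma). MRPL20 fell by 3.39, MRPL15 by 3.36 and RSM27 of the small subunit by 3.22. RSM22 was the 1 higher gene (0.73, not called without replicate 2 at 18 h, nor with the length trend removed, at 0.24), and MRP20 (0.09) and MRPL4 (-0.12) were not called, all named after their values were seen.

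In the 34 genes named MRPL, 33 were called lower with a median of -1.83, and in the other 31 genes 29 were called lower with a median of -1.75. Many of these genes are short, as are many of the genes that fell overall. Among the 29 outside the bin of the shortest genes 26 were called lower, with a median again of -1.83. With the length trend removed 58 of the 65 were lower, with a median of -1.43. On the scale of the hybridisation controls 32 were lower and 3 higher, with a median of -0.66. The median level of the list over arrays was 12.23 and 11.91 at the start, 10.61 and 10.79 at 9 h and 10.14 and 10.16 at 18 h. Most of the difference was thus in place at 9 h, and 16 genes (24.6%) were called lower from 9 h to 18 h, against 27% over all genes.

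Respiratory chain genes were lower on the RMA scale as well, by less. Of 44, 30 were called lower and 4 higher, with a median of -0.60, against 29.7% lower and 36.8% higher over all genes. With the length trend removed 15 were lower and 8 higher, with a median of -0.13, and on the scale of the hybridisation controls the median was 0.56. CYC1, the main cytochrome c, read 13.95 and 13.72 at the start and 10.63 and 9.86 at 18 h, a fall of 3.59 ± 0.266 (adjusted p 2.35e-05, limma). It had read 13.19 and 13.38 at 9 h, so its fall came late. ATP19, a small ATP synthase subunit, fell by 2.26 and NDE1, the external NADH dehydrogenase, by 1.99.

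The activator of respiratory genes is a complex of HAP2, HAP3, HAP4 and HAP5. HAP3, one of its DNA-binding subunits, fell by 2.14, from 9.51 and 9.09 to 7.35 and 6.97. HAP4, the subunit that carries the activation domain, was not called (0.58) except without replicate 2 of the start (0.80) or either hydrolysate array at 9 h. HAP4 was 1.17 below its 9 h level and was 2.86 higher under hydrolysate at 18 h. HAP2 and HAP5, named after their values were seen, rose by 0.57 and 0.87. The call of HAP2 was lost without replicate 1 of the start (0.26) or either array at 18 h (0.53 and 0.61). It was also lost in a fit of only the 4 arrays, with quantile normalization again (0.56) and with median centring (0.50). CYC1 was 3.60 higher under hydrolysate at 18 h than under sugar, and 31 of the 44 genes were called higher there, against 31.2% over all genes. The median length of the list is 445.5 bases. Among the shortest genes other than mitochondrial ribosomal proteins, 667 of 1380 were called higher there, with a median of 0.45.

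In the tricarboxylic acid cycle 4 of 22 genes were called higher and 8 lower (5 without replicate 1 at 18 h), with a median of -0.26 that turned to 0.91 on the scale of the hybridisation controls. CIT3, a minor citrate synthase, fell by 3.01 with a standard error of 0.96, and its call was lost without any 1 of the 4 arrays (-2.68 to -3.33). LSC1 and LSC2, the subunits of succinyl-CoA ligase, fell by 1.36 and 1.51. The main citrate synthase CIT1 fell by 0.34, a call lost without any 1 of the 4 arrays (-0.30 to -0.38).

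Peroxisomes carry out fatty acid breakdown in yeast. Of 27 genes of this kind 12 were called lower and 2 higher, against 29.7% and 36.8% over all genes. The list's median of -0.90 was -0.84 with the length trend removed and 0.27 on the scale of the hybridisation controls. DCI1 and ECI1, a pair of enoyl-CoA isomerase family genes, fell by 2.40 and 1.64. FAA2, an acyl-CoA synthetase, fell by 2.26, from 13.11 and 13.34 to 11.04 and 10.89, and IDP3, the peroxisomal isocitrate dehydrogenase, by 2.22. On the RMA scale the median level of the list was lower still at 9 h. Of the 27 genes 10 were called higher at 18 h than at 9 h, near the 31.9% called higher over all genes.

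Cytosolic ribosomal proteins gave a contrast with the mitochondrial ones. Of 129 measured, 45 were called higher at 18 h than at the start and 25 lower (54.3% called), with a median of 0.16. Over all genes 36.8% were called higher and 29.7% lower (66.5% called), so the count higher is near that share. With the length trend removed 66 were higher and 14 lower of the 112 with a length. Without replicate 1 of the start 15 were lower, and without replicate 1 at 18 h 12 were. At 9 h, however, the median level of the list was 13.74 and 13.81, above 12.46 and 12.24 at the start and 12.49 and 12.63 at 18 h. From 9 h to 18 h 128 of the 129 were called lower, with a median of -1.15, against 27% called lower over all genes. Large and small subunit genes had medians of -1.22 and -1.10 in that comparison.

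RPS11A and RPS15 of the small subunit rose from the start by 2.15 and 1.90, and RPL41A fell by 2.87, from a mean of 8.66 ± 0.103 (SD, n = 2) to 5.79 ± 0.296. RPL41A encodes one of the smallest yeast proteins and its probe set is shared with its copy. RPL3, a large subunit protein, was not called (-0.26, and -0.33 and called with the length trend removed). RPL3 read 14.03 and 14.11 at 9 h and 12.83 and 13.14 at 18 h, a fall of 1.08 between the times.

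Genes for building ribosomes remained above the start. Of 103 ribosome biogenesis genes, 63 were called higher and 6 lower than at the start, against 36.8% and 29.7% over all genes. The list's median was 0.78 (53 higher, 4 lower and a median of 0.63 with the length trend removed). ENP1, needed for the small subunit, read 6.64 and 7.01 at the start and 9.59 and 9.85 at 18 h, a rise of 2.89 ± 0.172 (adjusted p 1e-05, limma). PWP2 and UTP14, parts of the early small-subunit precursor, each rose by 2.55 and RRP5 by 2.49. NSR1, the yeast nucleolin, was not called (-0.15). Relative to 9 h, 65 of the 103 genes were called lower and 1 higher, against 27% and 31.9% over all genes. Leaving out 1 array at a time moved the number higher than at the start between 42 and 67, and for the cytosolic ribosomal proteins between 30 and 49. The number of biogenesis genes lower than at the start was 2 without replicate 2 of the start or replicate 1 at 18 h.

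RNA polymerase I and III genes had 18 of 40 higher and 9 lower, with RPC82 (1.80), RPO31 (1.64) and RPA190 (1.60), the largest subunit of polymerase I, among them. Translation factors and tRNA synthetases had 20 of 52 higher and 11 lower, and with the length trend removed 14 and 19. Without replicate 1 at 18 h 7 were lower. HCR1, an initiation factor subunit, rose by 2.13, and EFB1, an elongation factor, by 1.94.

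**Figure D5:**
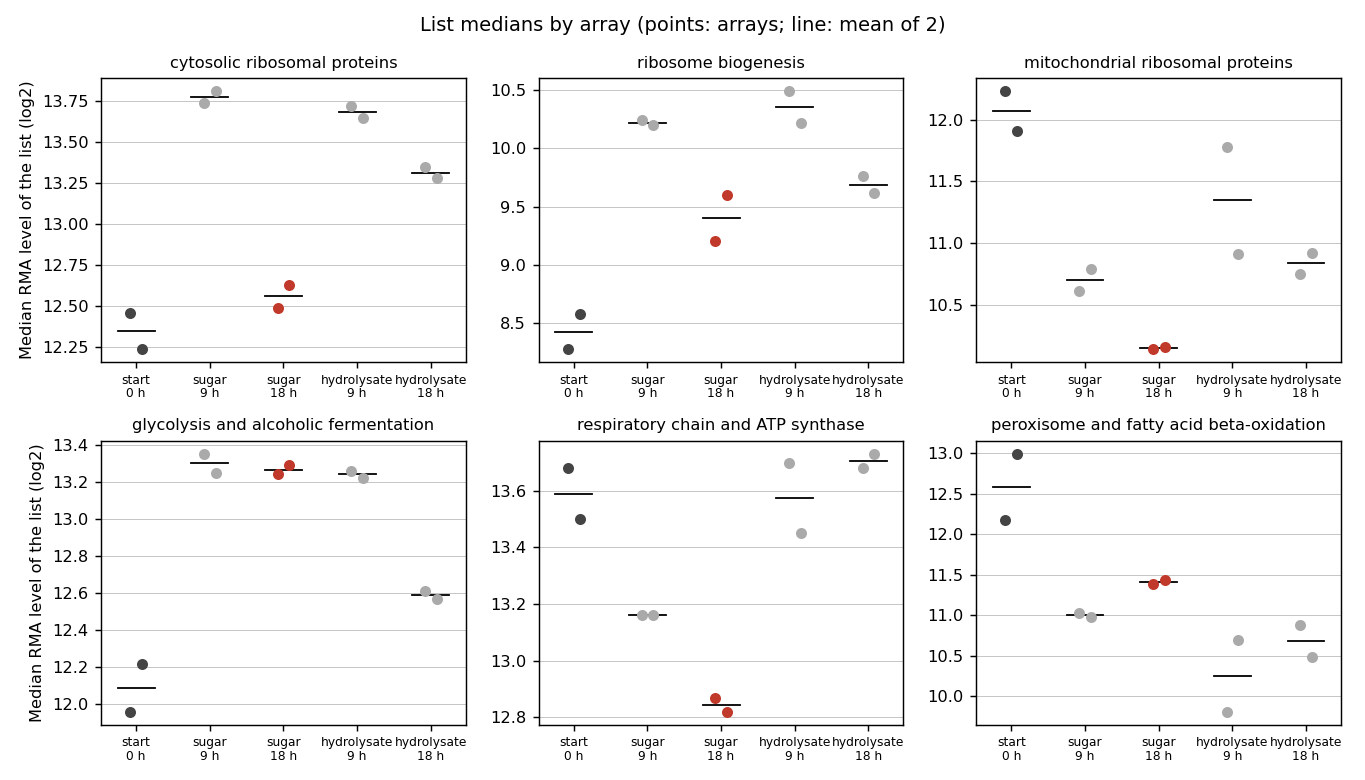
Median RMA level (log2) of the members of 6 gene lists on each of the 10 arrays (points) with the mean of the 2 arrays of a group (line). Vertical axes differ between panels. Cytosolic ribosomal proteins stand near 12.5 at start and at 18 h of sugar and near 13.8 at 9 h, while mitochondrial ribosomal proteins go from about 12.1 at start to about 10.1 at 18 h of sugar.

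Nitrogen scavenging genes gave a mixed picture. Of 39, 15 were called higher and 4 lower, but with the length trend removed 10 were higher and 10 lower, so the group's direction depends on that step. The number lower was 2 without replicate 2 at 18 h and 8 without either array of hydrolysate at 18 h. PTR2 had the largest rise of all. DAL80, a repressor of nitrogen catabolic genes, rose by 2.89 with a standard error of 0.709, pooled over all groups. It read 8.03 and 7.22 at the start, 10.49 and 10.54 at 18 h, and 12.3 and 9.55 under hydrolysate at 18 h. BAP2, a permease of branched-chain amino acids, rose by 2.35. DAL3 fell from 11.66 and 11.08 to 7.37 and 7.25. GAP1, the general amino acid permease, was not called (0.17), and MEP2, the high-affinity ammonium carrier, read 10.47 and 10.42 at the start and 9.21 and 9.19 at 18 h without being called (adjusted p 0.0518, limma). It was called in a fit of only the 4 arrays (0.00142) and with the length trend removed (-1.52). MEP2 had stood at 13.03 and 12.88 at 9 h, 3.76 above its level at 18 h.

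In amino acid synthesis outside the sulfur pathway 22 of 68 genes were called higher and 17 lower. Without replicate 1 at 18 h 10 were lower, and without replicate 2 at 18 h 14 were higher and 11 lower. ILV5 of branched-chain synthesis rose by 3.36, from 10.06 and 10.29 to 13.48 and 13.59, SER33 of serine synthesis by 2.58 and GLN1, glutamine synthetase, by 2.08. ARO8, an aromatic aminotransferase, fell by 2.37. From 9 h to 18 h 45 of the 68 genes were called lower and 2 higher, against 27% and 31.9% over all genes. Of 37 purine and pyrimidine genes 14 were higher (9 without replicate 2 at 18 h) and 9 lower than at the start, led by ADE4, the first enzyme of purine synthesis (2.97), with BAS1, a regulator of purine and histidine genes (2.15), and URA7, a CTP synthetase (-2.08).

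Thiamine genes led the rises and pyridoxine genes the falls within one list. Of its 20 genes 13 were higher and 4 lower, with a median of 0.82, and with the length trend removed 9 and 4. Beside THI4, the thiamine permease gene THI7 rose by 3.55, from 9.32 and 9.81 to 13.10 and 13.14, and PHO3, the acid phosphatase that splits thiamine phosphates, by 3.41. All 4 lower genes, SNZ3, SNO1, PDX3 and SNZ1, SNO1 and PDX3 being named after their values were seen, belong to pyridoxine metabolism. SNZ3 fell by 2.97 and has a near-identical copy on its probe set, and SNZ1 fell by 0.68, a call lost without any 1 of the 4 arrays (-0.53 to -0.83) or with the length trend removed (-0.55).

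Zinc and copper genes had 11 of 22 higher and 5 lower, with a median of 0.58, against 36.8% and 29.7% over all genes. IZH4 and IZH1 rose by 4.56 and 3.34 and the zinc permease gene ZRT1 by 2.16. CTR1, the high-affinity copper carrier, rose by 2.38, from 10.53 and 10.00 to 12.64 and 12.65, and was 4.59 lower under hydrolysate at 18 h. COX17, the copper chaperone of cytochrome oxidase, fell by 2.61. In the iron list 12 of 35 were higher and 5 lower, and with the length trend removed 13 and 10. FRE8, a putative iron reductase, rose by 2.98, while AFT2, an activator of iron genes, fell by 2.05. FET3, the multicopper oxidase of iron uptake, fell by 0.91 and was 3.72 higher under hydrolysate. Its fall was not called without replicate 1 of the start (-0.72) or replicate 2 at 18 h (-0.59).

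The phosphate list had 9 of 25 higher and 8 lower. PHO4, its activator, rose by 2.85 (2.10 and not called without replicate 1 of the start) and SPL2, a regulator of phosphate carriers, fell by 2.98. PHO84, the high-affinity phosphate carrier, was not called (-0.77). One lower member, CTF19 (-1.82), is a kinetochore gene.

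Lipid genes moved in different directions within each pathway. Of 38 genes of fatty acid and phospholipid synthesis, 19 were higher and 8 lower, and with the length trend removed 14 and 11. OLE1, the only fatty acid desaturase of yeast, read 10.58 and 10.75 at the start and 14.42 and 14.38 at 18 h, a rise of 3.73 ± 0.123 (adjusted p 1.71e-06, limma). ACC1, acetyl-CoA carboxylase, rose by 2.12 and INO1, the first enzyme of inositol synthesis, fell by 1.23. Of 31 ergosterol genes 15 were higher and 8 lower, and 12 and 12 with the length trend removed. Without replicate 2 at 18 h 5 were lower. ERG4 and ERG6, which act late in the pathway, fell by 3.59 and 2.97, from 10.77 and 10.53 to 7.17 and 6.95 for ERG4, while ERG5 and ERG11 rose by 1.98 and 1.44. ARE1, which esterifies sterols, rose by 2.07.

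Of 30 heat shock chaperone genes 17 were called higher and 5 lower, against 36.8% and 29.7% over all genes. The list's median was 0.70, and with the length trend removed 14 were higher and 8 lower, with a median of 0.38. SSA3, a stress-induced Hsp70, rose by 3.63, from 10.48 and 11.15 to 14.45 and 14.43. The co-chaperones YDJ1 and SIS1 rose by 2.21 and 2.15, and MGE1, a nucleotide exchange factor of mitochondria, fell by 2.08. In the general stress list 10 of 36 were higher and 5 lower, with a median of 0.16, and 16 and 3 with the length trend removed. Its activators MSN2 and MSN4 rose by 1.70 and 1.51. HSP12, a classical general stress gene, read near the top of the arrays' range, between 15.04 and 15.06 in all 4 arrays, and CTT1, the cytosolic catalase, between 14.71 and 14.82, neither called. HSP12 was at 0.74 and called with the length trend removed. A difference could go unseen at such levels.

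Autophagy genes were called higher in 19 of 35 cases and lower in 5, against 36.8% and 29.7% over all genes. Their median was 0.62 (0.39 with the length trend removed). ATG1, the kinase that starts autophagy, rose by 2.39, from 9.68 and 9.64 to 11.99 and 12.10, and had read 10.09 and 9.67 at 9 h. ATG2 rose by 2.63 and ATG18 by 1.98, and ATG15, the vacuolar lipase, by 3.43, although the start arrays of ATG15 read 5.92 and 7.92. Against 9 h 28 of the genes were higher at 18 h, against 31.9% called higher over all genes. The 5 lower than at the start, named after their values were seen, were ATG5, ATG10, ATG12, ATG17 and ATG20. Genes of the proteasome were split, with 12 of 37 higher and 10 lower than at the start.

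Trehalose and glycogen genes had 5 of 22 higher and 7 lower, and 2 and 13 with the length trend removed. With 1 array left out at a time 2 to 6 were higher and 2 to 9 lower, the lowest pair of counts being that without replicate 2 at 18 h. GAC1, a regulatory gene of glycogen synthesis, rose by 2.11 and GLG2, a glycogenin, by 1.19. GSY2, the main glycogen synthase, fell by 0.70, a call lost without any 1 of the 4 arrays (-0.63 to -0.77), and TPS1, which makes trehalose phosphate, was not called (-0.30).

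Cell cycle genes had 21 of 51 higher and 15 lower, near the 36.8% and 29.7% over all genes. With the length trend removed the counts were 18 and 19. CLB2 and CLB1, the mitotic cyclins, rose by 3.39 and 2.93, with CLB2 at 6.61 and 6.11 at the start and 10.09 and 9.40 at 18 h. RNR3, a ribonucleotide reductase subunit induced by DNA damage, rose by 3.60. CLN3, the G1 cyclin, was not called (-0.73), but was with the length trend removed (-1.16). From 9 h to 18 h 34 of the 51 genes were called lower and 7 higher, against 27% and 31.9% over all genes. Among the 10 histone genes 5 were lower and 1 higher than at the start, but 2 and 2 of the 9 with a length with the trend removed, and HTB2, a histone H2B gene, fell by 2.08. The 1 higher gene, HHO1, encodes the linker histone (0.88). Its call was lost without replicate 1 of the start (0.62) and without replicate 1 at 18 h (0.67).

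Meiosis and sporulation genes had 11 of 46 higher and 16 lower. DMC1, the meiotic recombinase, read 11.68 ± 0.127 (SD, n = 2) at the start and 7.97 ± 0.0412 at 18 h, a fall of 3.71 ± 0.146 (adjusted p 2.49e-06, limma), and had read 7.57 and 7.90 at 9 h. DIT1 of the spore wall fell by 2.65. CRR1 and GAS2, also of the spore wall, rose by 3.34 and 2.67, so the list holds genes that moved both ways.

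Markers of both mating types were measured. The a-specific genes MFA1, MFA2, STE2, STE6, BAR1 and AGA2 and the alpha-specific genes STE3 and SAG1 were above background in both groups. STE3, the receptor for a-factor, rose by 2.03, and the agglutinin genes SAG1 and AGA2 by 1.61 and 1.60. BAR1, the protease that degrades alpha-factor, fell by 2.23. Of the other a-specific genes MFA1 rose by 0.65, and MFA2 (-0.21), STE2 (0.28) and STE6 (0.1) were not called. The haploid-specific genes STE4, STE18, GPA1, FUS3, RME1 and HO were not below background in either group. On the RMA scale STE4 fell by 0.92, STE18 by 1.05, FUS3 by 0.63, RME1 by 1.28 and HO by 0.67. GPA1 was not called (0.33). The labels do not give the mating type or ploidy of the strain. In the whole mating list 13 of 29 genes were higher and 7 lower, and 11 and 10 with the length trend removed. Without replicate 2 at 18 h 7 were higher.

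Polyamine and drug exporters of the plasma membrane were mostly higher on the RMA scale. Of 28 genes of this kind 18 were called higher and 4 lower, with a median of 0.72, but many are long and with the length trend removed 8 of the 27 with a length were higher and 5 lower, with a median of 0.17. TPO1, TPO2 and TPO3 rose by 2.47, 2.72 and 2.79 and FLR1, a multidrug exporter, by 2.67. A near-identical copy is on the probe set of TPO2, which was at 1.01 and not called (adjusted p 0.189, limma) when its probe sets were averaged. Of 46 cell wall genes 22 were higher and 10 lower, among them TIR4, a mannoprotein of oxygen-poor cells (2.68), BCK1, a kinase of the integrity pathway (2.14), and PIR3 (2.05). The call of PIR3 was lost without replicate 1 of the start (1.56) and without either array at 18 h (1.84 and 2.26). Under hydrolysate at 18 h 32 of the 46 were called lower than under sugar, against 30.8% over all genes.

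The remaining lists were divided. Hypoxic genes and seripauperins had 13 of 30 higher and 5 lower, with PAU7 at 2.42 and AAC3, a mitochondrial carrier, at -2.43, and 3 lower without replicate 2 of the start or either array at 18 h. Osmotic and glycerol genes had 11 of 24 higher and 6 lower, with DAK2, a dihydroxyacetone kinase, at 2.67, and 6 and 6 with the length trend removed. Protein folding in the endoplasmic reticulum had 12 of 27 higher and 10 lower, with PDI1, protein disulfide isomerase, at 1.70 and SIL1 at -1.72, and 7 and 8 with the length trend removed. Mannosylation genes had 6 of 24 higher and 3 lower, and 4 and 5 with the length trend removed. Without replicate 2 of the start or either array at 18 h 1 was lower.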

How the data were processed

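Total RNA of 10 samples was extracted with Trizol, copied once and labelled with biotin for Affymetrix 3′ arrays, per the labels' protocols. The sample titles do not say whether samples of different times came from the same culture. The sources used here do not name the array type. Values deposited by the authors are log2 intensities after RMA. The submitters' processing notes list limma 3.52.4, affy 1.74.0 and R 4.2.1 without order or role. The call score of the authors' deposited table (1, -1 or 0) exists for the feeds at the later time and served as an alternative. Its columns of per-array values, 10 in number, were not used.

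Of 10928 probe sets 5811 were S. cerevisiae. Of these 5702 named 1 gene alone and gave 5654 genes, of which 46 had several probe sets and 111 a probe set shared with a near-identical copy. Coordinates come from the authors' deposited table, in which no build is named. Of 5643 genes in the reference table, 5585 had the same start and end there. Lengths existed for 5601 genes.

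A single limma 3.58.1 fit (R 4.3.3) of all 10 arrays gave 3 comparisons: sugar at 18 h against start, against sugar at 9 h, and hydrolysate against sugar at 18 h. The last 2 share the sugar arrays at 18 h with the first. Residual degrees of freedom were 5, prior ones 3.49. Each standard error is pooled over all groups, so a spread between replicates outside a comparison enlarges it. Calls used a Benjamini-Hochberg adjusted p under 0.05 over all genes. The test was checked on simulated data. Nothing in the labels pairs the replicate numbers. The deviations of same-numbered arrays of the start and of sugar at 18 h correlated at 0.002 across genes. Other pairs of groups, such as sugar at 9 h with sugar at 18 h, were not checked. The number of arrays limits the precision.

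Named genes were the 15 largest rises and 15 largest falls that were called, with groups that do not overlap and the brighter group above background, up to 4 called members per list by size, and 44 key genes. Of the genes this rule chose, 1 is not reported here. Members, the 40 lists and key genes were chosen with earlier results of these data known, and the lists overlap. After the values were seen, the lists of ribosomal proteins were corrected by identity: RPP1 of RNase P and MRP8 were removed. Where a probe set was at background in the dim group, folds are given as "at least". The length trend was removed per array by a smooth fit of level on log length.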

Additional observations from a re-analysis of the deposited data

How the results depend on the processing

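Counts of called genes were within 1.5 times of those reported under a trended and robust prior, a fit of only the arrays compared, removal of dim genes, all probe sets, their mean, quantile normalization again, median centring, removal of the length trend, and with 1 array left out. The exceptions follow. A 2-fold minimum left 2010 genes (1091 higher, 919 lower) against the start, 1697 (803 and 894) against 9 h and 1769 (987 and 782) between the feeds. Scaled to the hybridisation controls, 4128 were higher and 347 lower than at the start, and 1139 higher between the feeds. Scaled to the poly-A controls, an alternative chosen after seeing the data, 3880 were higher and 205 lower than at the start, 170 higher than at 9 h, and 1915 called (493 lower) between the feeds. The authors' deposited table called 304 between the feeds (215 higher, 89 lower).

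With 1 array left out at a time, 2953 to 3883 genes were called against the start (1648 to 2143 higher, 1305 to 1740 lower). Against 9 h the range was 2530 to 3537 (1296 to 1927 higher, 1187 to 1610 lower), and between the feeds 2654 to 3675 (1344 to 1836 higher, 1274 to 1839 lower). A lone array was assumed to vary like the other groups. With the replicate number as a block, 3656 genes were called against the start, 2029 of them higher and 1627 lower. The numbers were not found to pair the start arrays with those of sugar at 18 h, the only groups checked. Under the block CIT1 lost its call and MEP2 gained one.

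Small differences turned positive on the control scales. On that of the hybridisation controls they were 1.10 for ACS1, 1.00 for ADH1, 0.82 for CIT1, 0.25 for FET3, 0.46 for GSY2, 1.15 for HSP12, 1.06 for HXK1, 1.04 for MRPL4, 1.02 for NSR1, 0.90 for RPL3, 0.06 for SAH1, 0.49 for SNZ1 and 0.86 for TPS1. On that of the poly-A controls they were 1.20 for ACS1, 1.11 for ADH1, 1.09 for ADH2, 0.02 for ATG17, 0.93 for CIT1, 0.36 for FET3, 0.57 for GSY2, 1.26 for HSP12, 1.17 for HXK1, 0.04 for INO1, 1.15 for MRPL4, 1.12 for NSR1, 1.00 for RPL3, 0.16 for SAH1, 0.59 for SNZ1 and 0.97 for TPS1. With the length trend removed HSP12 was at 0.74 and SNF3 at -0.09. The cause of the spike-in and length differences was not tested. Genes near the top or bottom of the arrays' range have little room to differ.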

Other observations

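Of the neighbours of the genes with the largest falls, some read low as well, where 29.7% of all genes were called lower. TKL1 and LTP1, which follow each other on chromosome XVI, fell by 3.91 and 3.98. PRM10 and its neighbour YJL107C fell by 4.85 and 3.62 (adjusted p 3.72e-06 for the latter, limma), and YGL230C and SAP4 by 3.93 and 3.19. YLR012C had GAT3 on one side at -2.57 and LOT6 on the other at -1.43. Others stood alone: the neighbours of NKP1, RPP2B and ATO3, were at 0.60 and -0.32, and those of YGR035C at 0.17 and -0.36. Several neighbours rose, among them CCC2 beside MSW1 by 1.8 and MGA2 beside DAL3 by 1.64. DIM1 beside DIP5 rose by 1.51 and HIR1 beside YBL008W-A by 1.39. These neighbours were chosen after the values of the named genes were seen, and whether falls cluster by position was not tested.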
